A study of Lymantria dispar dispar and Lymantria dispar asiatica with 30 samples.

Results

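Female pupae of the Asian spongy moth (ASM) sampled on day 8 after pupation were compared with ASM pupae sampled on day 5, across all genes, with 3 pupae on each day. These 6 libraries were all the ASM libraries of the 2 days, out of 30 in the series. The series covered ASM and the European spongy moth (ESM) on days 1, 3, 5, 8 and 11, with 3 pupae a group, and was collected in a study of genes tied to female flight, which ASM females typically have and ESM females typically lack. All pupae were untreated females. The ASM pupae carried the label RM and came from a laboratory colony of Lymantria dispar asiatica founded from the Russian Far East, while the ESM pupae, labelled CT, came from a single North American laboratory colony of L. d. dispar on a larval diet with less iron phosphate. Each strain was therefore 1 colony on 1 diet, and strain, colony and diet cannot be told apart. A library held the poly(A) RNA of 1 whole pupa, so every tissue of the animal was read together. Nothing in the labels says that pupae of a group came from separate families. The p-values of single genes rest on the spread between pupae within a group, pooled over all 10 groups of the series. They do not measure the spread of the 6 ASM pupae alone.

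In a moth pupa the larval tissues are broken down and the adult body is built inside the pupal case. Pulses of the steroid hormone ecdysone order this work through a chain of nuclear receptors and transcription factors. As the hormone declines, epidermal cells lay down the adult cuticle, scales and wing membranes from chitin and cuticle proteins. Osiris genes are an insect family of membrane and secreted proteins, known in Drosophila from epithelia that make cuticle. Tweedle and other cuticle proteins are structural parts of the cuticle itself.

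Osiris 18 and osiris 20 were among the genes whose step from day 5 to day 8 differed most between ASM and ESM pupae. The stretch around the TATA box in front of each is shown to place these models. The sequences are those of the draft ASM genome that the study aligned upstream of the genes, on contigs tig00037198 for osiris 18 and tig00036830 for osiris 20, with no contig coordinates given. Each stretch runs 5′ to 3′ toward the gene and has 143 bases, with 120 before the TATA box and 15 after it, and the capitals mark the TATA box.
osiris 18 (Lda.35031): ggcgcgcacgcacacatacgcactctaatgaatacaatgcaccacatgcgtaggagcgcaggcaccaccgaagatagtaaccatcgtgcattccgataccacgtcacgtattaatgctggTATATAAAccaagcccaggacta
osiris 20 (Lda.35510): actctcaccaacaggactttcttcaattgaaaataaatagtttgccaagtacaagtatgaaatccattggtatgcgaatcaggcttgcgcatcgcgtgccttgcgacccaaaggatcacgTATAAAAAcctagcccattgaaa
The motif TATATAAA, searched on both strands, was found in 8.99% of 5507 windows of 143 bases in the 3 ASM upstream regions at hand, and TATAAAAA in 8.83%. The search missed a line of the alignment upstream of the takeout gene and joined the bases on either side, so these shares are approximate. The ESM genome differed from the ASM genome at 0 of the 143 bases in both stretches. Outside the stretches the aligned genomes did differ, for osiris 20 at a base soon after its stretch. The ESM sequence covered only the end of the aligned osiris 20 region. The match within the stretches is a description of the letters.

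The recovered libraries held 6123879, 9641662 and 6545118 reads on ASM day 8 and 5187995, 5534863 and 5714950 reads on ASM day 5. Expression is given as a normalised count, which is the reads of a gene divided by the size factor of its library. Differences were tested with limma on the deposited values of a variance-stabilising transformation (VST), and genes with an adjusted p under 0.05 are referred to as called. A VST unit is log2-like but understates changes of low counts, so ratios of mean normalised counts are given beside it. Within a day the libraries correlated at Pearson r = 0.973 to 0.978 across genes on day 8 and 0.933 to 0.967 on day 5, and genes are not independent replicates. The lowest day 5 values involved pupa 2, which also stood nearest to day 8 on the first principal component. On this component, which held 45.8% of the variance over 30 libraries, the day 8 pupae scored 57.4, 58.6 and 65.2 and the day 5 pupae -30.9, 2.35 and -15.6. The days did not overlap on it, and the day 5 pupae were spread wider than the day 8 pupae. On the second component (20.1%), day 8 pupae scored 16.9, 12.4 and 7.39 and day 5 pupae 59.3, 59.4 and 65.8.

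Between the 2 days, many ASM genes changed, in both directions. Of 19652 genes tested, 2529 rose on day 8 and 2238 fell (limma, adjusted p under 0.05), together 24.3% of the genes. Genes that rose made up 12.9% and genes that fell 11.4%. The pupae of the 2 days did not overlap for 39.3% of genes, and 22.8% were called without overlap. The median difference over all genes was -0.02 VST units. When libraries were set to the same median, 2260 genes rose and 2563 fell. In whole pupae, fewer cells of a type and less RNA per cell cannot be told apart in any of these changes.

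**Figure D1:**
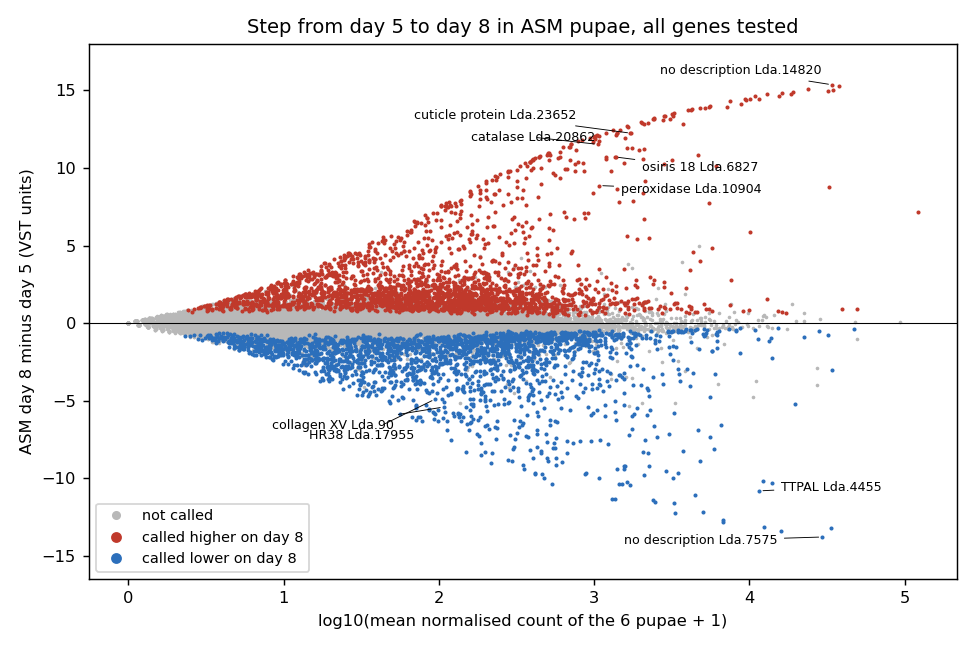
Difference between ASM day 8 and day 5 (VST units) against the mean normalised count of the 6 pupae (log10 of the count plus 1) for 19652 genes, in red where called higher on day 8, in blue where called lower and in grey where not called. The 2529 genes that rose reach 15.37 VST units and the 2238 that fell reach -13.80.

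The largest changes belonged to genes without a description. Lda.14820 had 48818, 86079 and 69464 normalised counts on day 8, against 0, 0 and 0.979 on day 5. Its neighbour by number, Lda.14821, had 53340, 92750 and 81634 on day 8, against 0, 0.995 and 0.979 on day 5. Over the 3 pupae of a day, Lda.14820 had 275811 reads on day 8 and 1 on day 5, and Lda.14821 had 306887 on day 8 and 2 on day 5. The differences were 15.37 ± 0.25 and 15.31 ± 0.57 VST units (SE, limma adjusted p = 1.1e-24 and 3.7e-17). ESM pupae showed the same step in both, with 20994, 17791 and 42602 counts of Lda.14820 on day 8 and 0 in all 3 pupae on day 5. The files give no sequence or role for these models.

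The largest falls were also in genes without a description. Lda.7575 had 7, 0 and 1.53 normalised counts on day 8, against 107030, 2094 and 67732 on day 5. Lda.40983 had 0, 7.98 and 0 on day 8, against 37845, 1402 and 56175 on day 5. In both, day 5 pupa 2 was far below the other day 5 pupae and still far above every day 8 pupa. The differences were -13.80 ± 1.14 and -13.43 ± 0.89 VST units (SE, limma adjusted p = 7.4e-10 and 9.5e-12). By the measure that follows, genes with no read on day 5 outnumbered genes with no read on day 8. The day 8 libraries were also the deeper ones, and the part of depth in this was not tested. With at least 100 mean normalised counts on the other day and no overlap as the measure, 89 genes had no read in any day 5 pupa and 14 had no read in any day 8 pupa. Of the 89, 78 also reached that level in ESM day 8 pupae and 11 did not, and all 14 reached it in ESM day 5 pupae. At a count of 0, a level of up to 3 reads per library could not be told from none.

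Descriptions were at hand for 582 genes, and 574 of these were tested. Only genes that the study listed carry one, many of them for their expression in these same pupae, so their shares are no sample of the genome. Of the 574, 94 rose and 83 fell, together 30.8%, beside 24.3% of all genes. The groups below were built from these descriptions, and the counts in a group are not independent evidence of its direction.

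Cuticle and Osiris genes held 4 of the 6 largest rises among described genes. Of 11 members tested, 6 rose, 1 fell and 4 were not called, 63.6% called in all beside 24.3% of all genes. The median difference was 7.74 VST units beside -0.02 over all genes tested. All 4 Osiris models rose together. Osiris 18 (Lda.6827) had 5070, 2635 and 449.7 normalised counts on day 8, against 2.03, 4.97 and 3.92 on day 5. Its mean was 747-fold higher on day 8, and the difference was 10.71 ± 0.72 VST units (SE, limma adjusted p = 1.2e-11). The days lay far apart, while day 8 pupae 1 and 3 differed more than 10-fold.

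Osiris 20 (Lda.35510) had 4477, 2376 and 324 normalised counts on day 8, against 2.03, 1.99 and 3.92 on day 5. The ratio of the means was 905, with a 95% counting interval of 459 to 2096 that rests on 8 reads on day 5 and covers counting error only. The difference was 10.58 ± 0.69 VST units (SE, limma adjusted p = 6.6e-12). The second osiris 18 model (Lda.35031) had 4083, 3205 and 391 on day 8, against 2.03, 9.95 and 17.6 on day 5, a 259-fold higher mean (9.82 ± 1.10 VST units, limma adjusted p = 2.1e-07). A further Osiris gene (Lda.35030) was lower, at 683, 543 and 56.7 on day 8, against 2.03, 1.99 and 0 on day 5 (7.82 ± 0.90 VST units, limma adjusted p = 3.4e-07). In all 4 models day 8 pupa 1 was the highest and day 8 pupa 3 the lowest. The call held in each of them when any 1 of the 6 pupae was left out. The 2 osiris 18 models may share reads if their sequences are alike, which was not tested.

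**Figure D2:**
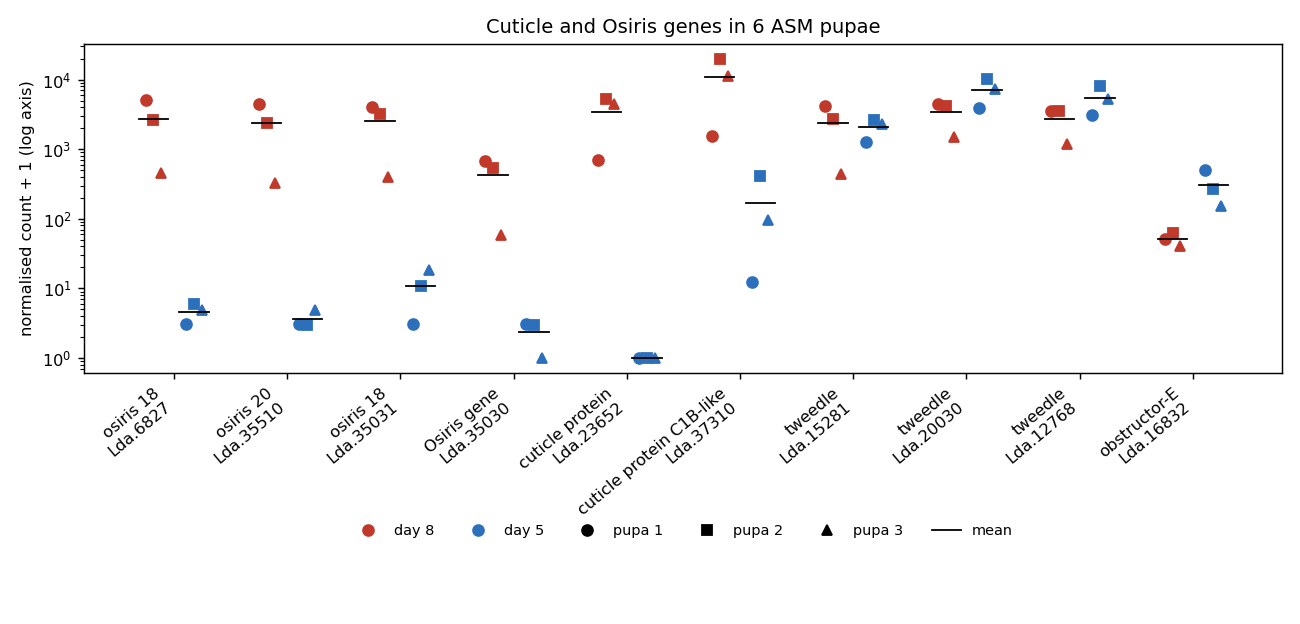
Normalised counts plus 1 (log axis) of 10 cuticle and Osiris genes in the 3 day 8 (red) and 3 day 5 (blue) ASM pupae, with a symbol for each pupa and a line at the group mean. The Osiris genes sit between 56.7 and 5070 normalised counts on day 8 and at no more than 17.6 on day 5, whereas the days overlap for the 3 tweedle genes. Lda.38912, at 0 in all 6 pupae, is not drawn.

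Of the other 7 members of the list, 2 cuticle protein genes rose, with another order of pupae. The cuticle protein gene Lda.23652 had 701, 5245 and 4441 normalised counts on day 8 and no read in any day 5 pupa. It was at least 1159-fold higher on day 8, measured against 3 reads in each day 5 library (12.24 ± 0.51 VST units, limma adjusted p = 4.7e-16). The pupal cuticle protein C1B-like gene (Lda.37310) had 1523, 19808 and 11135 on day 8, against 11.1, 404 and 94 on day 5, a 63.8-fold higher mean (7.74 ± 1.14 VST units, limma adjusted p = 1.5e-05). In both, day 8 pupa 1 was the lowest, the pupa with the highest Osiris counts. Obstructor-E (Lda.16832), a chitin-binding protein that in Drosophila helps to shape the pupal case, fell. It had 50.8, 60.5 and 39.1 counts on day 8, against 502, 263 and 151 on day 5 (-3.73 ± 0.62 VST units, limma adjusted p = 6.4e-05).

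The tweedle genes did not pass the test in ASM. Lda.15281 had 4121, 2693 and 434 normalised counts on day 8 and 1247, 2609 and 2295 on day 5 (-0.41 ± 0.88 VST units, limma adjusted p = 0.80). Lda.20030 had 4531, 4225 and 1506 on day 8 and 3943, 10345 and 7223 on day 5 (adjusted p = 0.62), and Lda.12768 had 3544, 3480 and 1199 on day 8 and 3103, 8173 and 5263 on day 5 (adjusted p = 0.58). Day 8 pupa 3, lowest for the Osiris genes, was also the lowest day 8 pupa for all 3 tweedle genes. The larval/pupal rigid cuticle protein 66-like gene (Lda.38912) had no read in any of the 6 pupae.

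Detoxification and redox genes that were called all rose. Of 20 members tested, 9 rose and 0 fell by limma, with a median difference of 1.17 VST units. The called share was 45%, beside 24.3% of all genes and 30.8% of described genes. At an unadjusted p under 0.05, 10 were higher and 3 lower, and voom called 9 higher and 0 lower. Catalase breaks down hydrogen peroxide. Both catalase models had no read in any day 5 pupa. Lda.20862 had 4571, 1037 and 733 normalised counts on day 8 and was at least 708-fold higher than 3 reads in each day 5 library (11.53 ± 0.52 VST units, limma adjusted p = 2.2e-15). Lda.20867 had 1537, 1210 and 302 on day 8 and was at least 340-fold higher (10.51 ± 0.85 VST units, limma adjusted p = 5.4e-10). In both, day 8 pupa 1 was the highest and day 8 pupa 3 the lowest, as for the Osiris genes. Choline dehydrogenase (CHDH, Lda.40578), an enzyme that oxidises choline, had 332, 214 and 421 counts on day 8, against 2.03, 0 and 0 on day 5 (8.35 ± 0.53 VST units, limma adjusted p = 3.4e-12). Its highest day 8 pupa was pupa 3, unlike catalase.

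Some members were named after their values had been seen. In the detoxification list these were the other 7 that rose: cytochromes P450 CP6K1 and CP6B4, which oxidise hormones and foreign compounds, the drug transporters MDR49 and L259, 2 UDP-glucuronosyltransferases and a carbonyl reductase. Multidrug resistance protein MDR49 (Lda.38179) averaged 712 normalised counts on day 8 and 128 on day 5 (3.71 ± 0.85 VST units, limma adjusted p = 0.0020). CP6K1 (Lda.5534) averaged 225 on day 8 and 15.2 on day 5 (5.48 ± 1.72 VST units, limma adjusted p = 0.021).

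More basement membrane and hemicentin genes fell than rose. Of 8 members, 4 fell, 1 rose and 3 were not called, with a median of -2.18 VST units. The called share was 62.5%, beside 24.3% of all genes and 30.8% of described genes. The collagen alpha-1(XV) gene (Lda.90), for a matrix protein tied to basement membranes, had 17.5, 7.98 and 9.19 normalised counts on day 8, against 237, 203 and 165 on day 5. Its mean was 17.5-fold lower on day 8 (-5.42 ± 0.43 VST units, limma adjusted p = 3.6e-10). The hemicentin-1-like gene (Lda.21287), of a family of extracellular matrix proteins, had 99.8, 103 and 116 on day 8, against 981, 677 and 682 on day 5 (-4.46 ± 0.45 VST units, limma adjusted p = 4e-08). Each day was tight in these genes and the days were far apart. Hemicentin-1 (Lda.23099) had 21, 13.3 and 7.66 on day 8, against 97.2, 130.3 and 217 on day 5 (limma adjusted p = 2.3e-06). The adhesive matrix protein BGH3 (Lda.39815) had 273, 331 and 160.1 on day 8, against 2036, 1345 and 2294 on day 5. Its difference of -3.95 ± 1.41 VST units was near the threshold (limma adjusted p = 0.043), and the call was lost when any 1 of the 6 pupae was left out, with adjusted p values up to 0.15. It was also lost on the log2 scale (limma adjusted p = 0.076) and with a robust variance prior (0.051). With only the 6 ASM libraries of the 2 days in the fit, the call held. Another hemicentin-1 model (Lda.21288), named after its values were seen, rose to a mean of 222 on day 8, against 33.5 on day 5 (limma adjusted p = 0.0025).

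More wing and body patterning genes fell than rose. Of 25 members, 11 fell, 3 rose and 11 were not called, with a median of -0.77 VST units. The called share was 56%, beside 24.3% of all genes and 30.8% of described genes. Dwarfin sma-2 (Lda.10081), named for a Smad of TGF-beta signalling in Caenorhabditis elegans, had 190.0, 242 and 172 normalised counts on day 8, against 1660, 1441 and 1520 on day 5 (-4.17 ± 0.89 VST units, limma adjusted p = 0.0011). The growth/differentiation factor 8-like gene (Lda.4496), for a ligand of the TGF-beta family, had 4.38, 3.99 and 2.3 on day 8, against 70.9, 55.7 and 80.3 on day 5 (-4.11 ± 0.51 VST units, limma adjusted p = 1.1e-06). LIX1 (Lda.10035), whose Drosophila relative lowfat works with the large cadherin Fat, had 146, 329 and 186 on day 8, against 3152, 891 and 1138 on day 5 (-3.94 ± 0.62 VST units, limma adjusted p = 3.3e-05). No pupa of one day reached the level of the other day in these genes.

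Other called members of that list were named after their values were seen. The protocadherin FAT4 (Lda.19461) averaged 42.1 normalised counts on day 8 and 284 on day 5. Distal-less (Lda.34506), a homeobox gene of limbs and wing spots, averaged 14 on day 8 and 80.7 on day 5 (-2.91 ± 0.66 VST units, limma adjusted p = 0.0020). Outspread (Lda.25916) averaged 567 on day 8 and 1968 on day 5 (-2.18 ± 0.17 VST units, limma adjusted p = 4.2e-10). The members that rose were gooseberry-neuro, the Janus kinase hopscotch and the ubiquitin ligase CBL. Among genes outside the lists, ANKF1 (Lda.30483), an ankyrin repeat protein, had 40.3, 31.9 and 46.7 counts on day 8, against 306, 446 and 396 on day 5, and fell by 4.95 VST units (SE 0.51, limma adjusted p = 5.2e-08).

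Hormone response and storage genes moved both ways, with 3 rises and 2 falls among 17 tested and a median of -0.43 VST units. The called share was 29.4%, beside 24.3% of all genes and 30.8% of described genes. HR38 (Lda.17955), a nuclear receptor that in Drosophila partners the ecdysone receptor subunit Ultraspiracle, had 19.3, 14.6 and 4.6 normalised counts on day 8, against 115, 243 and 166 on day 5 (-4.91 ± 0.78 VST units, limma adjusted p = 3.6e-05). E75 (Lda.21602), an early ecdysone response gene, had 1380, 1793 and 1358 on day 8, against 7651, 2688 and 5487 on day 5 (-1.53 ± 0.30 VST units, limma adjusted p = 0.00040). Both receptors were lower in every day 8 pupa than in any day 5 pupa. The members that rose, named after their values were seen, were the Fos homologue kayak, the insulin pathway factor FOXO and the receptor HNF4. Kayak (Lda.1228) averaged 1910 counts on day 8 and 891 on day 5 (limma adjusted p = 8.3e-05). Of the chitin and glycan sugar nucleotide genes, 1 of 5 was called, a share of 20%. N-acetylglucosamine-6-phosphate deacetylase (Lda.14707), which recycles the chitin sugar, had 233, 249 and 233 counts on day 8, against 526, 421 and 526 on day 5 (limma adjusted p = 4.4e-05).

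**Figure D3:**
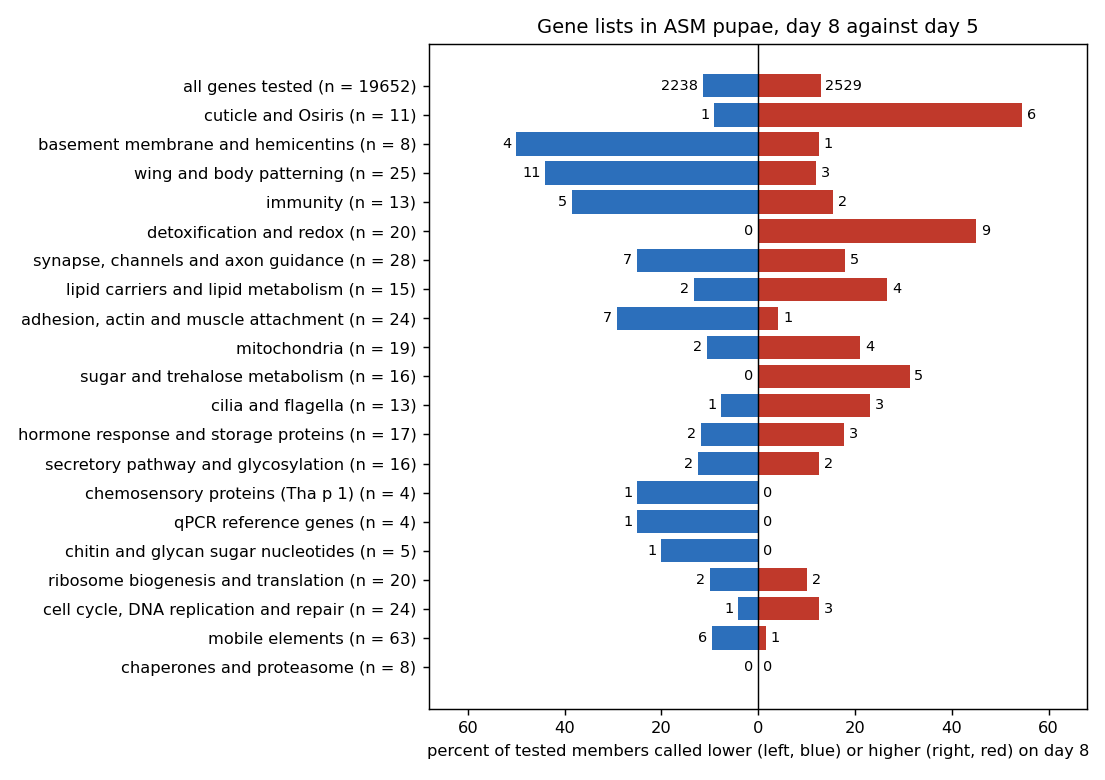
Percent of the tested members of each gene list called higher (red, right) or lower (blue, left) on ASM day 8 against day 5, with the number of genes at each bar and all 19652 genes in the top row. The detoxification list has 9 rises and 0 falls, and the wing and body patterning list 3 rises and 11 falls.

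Among lipid carriers, 4 of 15 rose and 2 fell, 40% in all, beside 24.3% of all genes and 30.8% of described genes. One of the falls was among the most abundant described transcripts of day 5. This alpha-tocopherol transfer protein-like gene (TTPAL, Lda.4455), of a family that binds small lipids, had 3.5, 65.2 and 82 normalised counts on day 8, against 20785, 17179 and 31539 on day 5. Its mean was 461-fold lower on day 8 (-10.83 ± 1.17 VST units, limma adjusted p = 1e-07). Reads of the whole list made up 0.0463, 0.0424 and 0.0433% of the day 8 libraries, against 0.459, 0.358 and 0.607% of the day 5 libraries. That drop was mostly this 1 gene, which alone held 70009 reads over the day 5 pupae. A second model of the same name (Lda.41150) had 64.8, 73.2 and 113 counts on day 8, against 8.1, 21.9 and 5.87 on day 5 (limma adjusted p = 0.045). Its call was lost in 5 of the 6 fits without 1 pupa, with adjusted p values up to 0.14, and also in other settings.

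Sugar and trehalose genes rose or were not called, with 5 rises and 0 falls among 16 by limma and a median of 0.57 VST units. Their called share of 31.25% was near the 30.8% of described genes, beside 24.3% of all genes. At an unadjusted p under 0.05, 8 were higher and 0 lower, and voom called 6 higher and 0 lower. The glucose transporter GTR3 (Lda.31602) had 237, 223 and 331 normalised counts on day 8, against 59.8, 49.7 and 42.1 on day 5 (3.65 ± 0.46 VST units, limma adjusted p = 1.5e-06). Sorbitol dehydrogenase (Lda.11987) had 186, 245 and 167 on day 8, against 34.4, 51.7 and 27.4 on day 5 (3.52 ± 0.56 VST units, limma adjusted p = 3.8e-05). Every day 8 pupa was above every day 5 pupa for both. Of 19 mitochondrial genes, 4 rose and 2 fell, a called share of 31.6%, also near that of described genes. The citric acid cycle enzyme 2-oxoglutarate dehydrogenase (Lda.27972), among the 5 most abundant described genes of day 8, had 3070, 4655 and 4626 counts on day 8, against 1678, 2312 and 2049 on day 5 (limma adjusted p = 0.00098). An uncoupling protein 4-like gene (Lda.5584) had 57.8, 61.2 and 68.9 on day 8, against 14.2, 23.9 and 35.2 on day 5 (limma adjusted p = 0.0041). Mitochondrial ribosomal protein L37 (Lda.20365) fell to 257, 247 and 238 on day 8, against 795, 448 and 527 on day 5 (limma adjusted p = 2.4e-06).

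Genes of nerve cells and their wiring changed in both directions, with 5 rises and 7 falls among 28 tested. That was 42.9% in all, beside 24.3% of all genes and 30.8% of described genes. Synaptic vesicle glycoprotein 2C (Lda.17262), a protein of transmitter vesicles, had 169.9, 151 and 188 normalised counts on day 8, against 9.12, 13.9 and 3.92 on day 5, an 18.9-fold higher mean (5.33 ± 0.73 VST units, limma adjusted p = 4.8e-06). The netrin receptor UNC5C (Lda.10908), which guides growing axons, had 47.3, 56.6 and 33.7 on day 8, against 133, 145 and 208 on day 5 (-2.64 ± 0.44 VST units, limma adjusted p = 8.1e-05). The other members that fell, named after their values were seen, were 3 irregular chiasm C-roughest models, semaphorin-1A, latrophilin and calsyntenin-1, most of them surface proteins of neurons or eye cells. The others that rose were SV2B, a kainate receptor, a histamine receptor and disks large 1.

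Adhesion, actin and muscle attachment genes fell in 7 of 24 cases and rose in 1, with a median of -0.56 VST units. Their called share of 33.3% was near the 30.8% of described genes, beside 24.3% of all genes. Integrin alpha-3 (Lda.10529) had 7, 12 and 11.5 normalised counts on day 8, against 41.5, 23.9 and 29.4 on day 5 (limma adjusted p = 0.012), a call lost on the log2 scale (adjusted p = 0.053), without day 8 pupa 1 (0.057) and without day 5 pupa 1 (0.071). Calmodulin (Lda.17214), the calcium sensor, had 3335, 3949 and 3075 on day 8, against 7437, 4977 and 7554 on day 5 (-0.71 ± 0.17 VST units, limma adjusted p = 0.0024). The rise was anillin (Lda.26871), a scaffold of the dividing cell, at 343, 257 and 365 on day 8, against 113, 181 and 158 on day 5 (limma adjusted p = 0.0075), a call lost without day 5 pupa 1 (adjusted p = 0.055). Anillin also stands in the list of cell cycle and repair genes, where 3 of 24 rose and 1 fell, 16.7% in all. The spindle protein ASP (Lda.19483) had 495, 230.2 and 518 counts on day 8, against 89.1, 144 and 117 on day 5 (limma adjusted p = 6.1e-05). The repair gene XRCC3 (Lda.34136) had 166, 162 and 105 on day 8, against 34.4, 45.8 and 27.4 on day 5 (limma adjusted p = 3.4e-07).

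Lists for protein synthesis and handling had called shares near or below the 24.3% of all genes. In ribosome biogenesis and translation 2 of 20 rose and 2 fell, 20% in all. The processome gene UTP14 (Lda.761) had 626, 495 and 659 normalised counts on day 8, against 204, 307 and 249 on day 5 (limma adjusted p = 6e-06), and the eIF4E transporter-like gene (Lda.29448) had 1308, 1404 and 1396 on day 8, against 772, 871 and 677 on day 5 (limma adjusted p = 0.00018). In the secretory pathway 2 of 16 rose and 2 fell, 25% in all. SEC62 (Lda.4778), of the translocation channel, had 327, 315 and 280.4 on day 8, against 749.6, 498 and 415 on day 5 (limma adjusted p = 0.0011), and ALG10 (Lda.10484), a glycosyltransferase, had 85.8, 106 and 124 on day 8, against 51.7, 66.6 and 71.5 on day 5 (limma adjusted p = 0.024). The ALG10 call was lost without day 8 pupa 2 or 3 (adjusted p = 0.061 and 0.12) and without day 5 pupa 1 (0.12). With only the 6 ASM libraries of the 2 days, the calls of ALG10 (limma adjusted p = 0.068) and SEC62 (0.051) were lost. None of 8 chaperone and proteasome genes was called by limma, their adjusted p values were 0.064 or higher, 1 had an unadjusted p under 0.05, and voom called 0.

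Immunity, cilia, chemosensory, storage protein and mobile element genes were read as lists that could follow other tissues or cell content. Among 13 immunity genes 2 rose and 5 fell, 53.8% in all, beside 24.3% of all genes and 30.8% of described genes. Peroxidase (Lda.10904), which oxidises its substrates with hydrogen peroxide, had 1546, 2934 and 1891 normalised counts on day 8, against 8.1, 18.9 and 69.5 on day 5, a 66-fold higher mean (8.87 ± 1.32 VST units, limma adjusted p = 1.7e-05). The inducible metalloproteinase inhibitor IMPI (Lda.11643), known from the wax moth Galleria mellonella as an inhibitor of microbial proteases, had 278, 285 and 185 on day 8, against 0, 0 and 2.94 on day 5 (7.74 ± 0.37 VST units, limma adjusted p = 7.2e-15). These rises stood beside falls of pattern recognition genes, among them MRC1, LPSBP and BGBP, named after their values were seen. Reads of the immunity list made up 0.0722, 0.118 and 0.0704% of day 8 libraries and 0.0474, 0.0386 and 0.106% of day 5 libraries, which overlap.

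Cilia and flagella genes rose in 3 of 13 cases and fell in 1, a called share of 30.8% beside 24.3% of all genes and 30.8% of described genes. The 2 models of the intraflagellar transport gene OSM1 were among the rises, with 52.5, 29.9 and 39.8 normalised counts of Lda.27201 on day 8, against 8.1, 15.9 and 9.79 on day 5 (limma adjusted p = 0.0019), and 43.8, 24.6 and 40.6 of Lda.35570 on day 8, against 6.08, 11.9 and 8.81 on day 5 (limma adjusted p = 0.0027). Of 4 chemosensory Tha p 1 genes 1 was called, a share of 25%. This gene, Lda.42070, fell to 0.876, 3.33 and 4.6 on day 8, against 14.2, 13.9 and 14.7 on day 5 (limma adjusted p = 0.046). The call was lost when any 1 of the 6 pupae was left out (adjusted p up to 0.15). The fat body storage protein models AJSP1 and SSP1 were scarce, and other storage proteins may stand among genes without a description. Means were 3.55 counts on day 8 and 13.3 on day 5 for AJSP1 and 6.81 on day 8 and 11.2 on day 5 for SSP1. Neither was called by limma (adjusted p = 0.24 and 0.72). Of 63 mobile element genes 1 rose and 6 fell, 11.1% in all. An R1DM-type element (Lda.29214) had 58.7, 31.9 and 53.6 on day 8, against 209, 171 and 410.1 on day 5 (limma adjusted p = 0.00020), and a TNT 1-94 type element (Lda.38655) had 7, 0.665 and 1.53 on day 8, against 13.2, 5.97 and 22.5 on day 5, with overlap (limma adjusted p = 0.010). The call of Lda.38655 was lost with only the 6 ASM libraries (adjusted p = 0.11), without day 8 pupa 2 (0.064) and without day 5 pupa 3 (0.091). The part of changing tissue shares in any of these values was not tested.

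Of the 4 genes used as qPCR references, 1 was called, a share of 25% that was near the 24.3% of all genes. The elongation factor gene Ef1g (Lda.33417) had 5641, 7664 and 5523 normalised counts on day 8, against 10933, 8826 and 10483 on day 5, a 1.61-fold lower mean (-0.48 ± 0.13 VST units, limma adjusted p = 0.011). That call was lost with only the 6 ASM libraries (adjusted p = 0.086) and in limma without a variance trend (0.057). It was also lost without day 8 pupa 3 (0.058) and without day 5 pupa 1 (0.0502). Gamma-tubulin (Lda.39600) had 158, 146 and 147 on day 8 and 184, 176 and 198 on day 5, which do not overlap but miss the threshold (limma adjusted p = 0.24). Actin (Lda.11070) had 21272, 46459 and 32366 on day 8 and 25677, 25299 and 20269 on day 5 (limma adjusted p = 0.28), and GAPDH (Lda.9151) had 1103, 1480 and 1751 on day 8 and 1892, 1414 and 1759 on day 5 (limma adjusted p = 0.64). Importin-5 (Lda.16304), another of the most abundant described genes of day 8, had 3593, 4522 and 3569 on day 8 and 3908, 3695 and 3704 on day 5 (limma adjusted p = 0.93).

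The spread of reads over genes was compared by exact permutation tests of 3 against 3 pupae, in which the smallest two-sided p is 0.1. The 100 most abundant genes held 37.8, 42 and 36.7% of reads on day 8 and 33.6, 37.7 and 35.7% on day 5 (exact p = 0.2). The 10 most abundant genes held 15.9, 16.2 and 14.4% on day 8 and 11.5, 16.3 and 12.1% on day 5 (exact p = 0.4). More genes had a read on day 8, at 18620, 18869 and 18719, against 18347, 18507 and 18513 on day 5 (exact p = 0.1), and the day 8 libraries were also the deeper ones. Cuticle and Osiris genes held 0.537, 0.690 and 0.398% of reads on day 8, against 0.168, 0.396 and 0.269% on day 5 (exact p = 0.1). None of 24 such measures passed after adjustment, where the smallest value was 0.22.

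The step in ASM was set against the step between the same days in ESM, which shares no library with it. Of the genes tested, 2547 rose and 2370 fell in ESM, 25% of all, and the pupae of the 2 days did not overlap for 37.9% (day 8 above day 5 for 19.8%). Genes called in both strains numbered 2972, with the same direction in 2964 and opposite directions in 8. The shared calls in 1 direction made up 62.2% of the ASM calls and 60.3% of the ESM calls. The difference between the steps was itself called by limma for 191 genes, 0.972% of all, with the ASM step higher in 118 (0.6%) and lower in 73. This count was 104 with only the 12 libraries of the 2 days in the fit and 52 with voom on recovered counts.

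**Figure D4:**
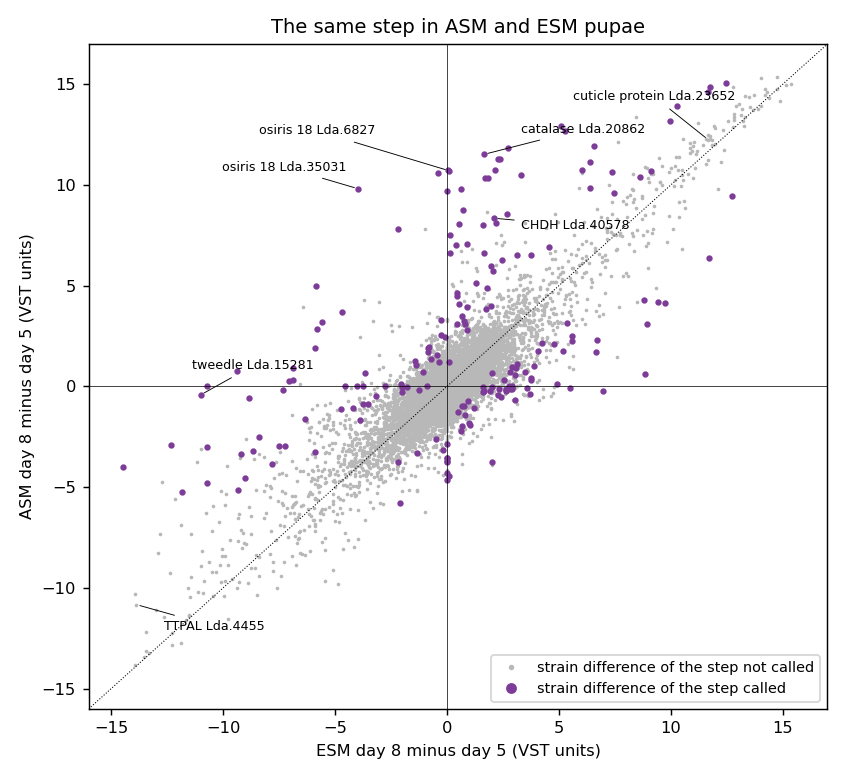
Difference between day 8 and day 5 in ASM (vertical axis) and in ESM (horizontal axis) in VST units for 19652 genes, with the 191 genes whose steps differ between the strains in purple and a dotted line where the steps are equal. Most genes lie along the line, while the osiris 18 and catalase genes lie near 0 or below on the ESM axis or well above the line.

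Osiris genes rose in ASM and not in ESM. Osiris 20 had 0, 14.6 and 0 normalised counts on ESM day 8 and 8.99, 2.08 and 4.52 on ESM day 5, and its ASM step was 10.99 ± 0.97 VST units above the ESM step (limma adjusted p = 5.9e-08). Osiris 18 (Lda.6827) had 0, 34.1 and 1.41 on ESM day 8 and 8.99, 4.16 and 4.52 on ESM day 5 (step difference 10.64 ± 1.02, limma adjusted p = 2e-07). The other osiris 18 model (Lda.35031) had 0, 16.6 and 0 on ESM day 8, against 133, 2.08 and 187 on ESM day 5, and fell in ESM (-3.98 VST units, limma adjusted p = 0.0089). It was the only described gene among the 8 called in opposite directions. Osiris gene Lda.35030 followed it, at 0, 2.92 and 0 on ESM day 8 and 27, 0 and 36.1 on ESM day 5 (step difference 9.99, limma adjusted p = 2.4e-05). With voom on recovered counts the difference between the steps was not called for osiris 20, Lda.6827 and Lda.35030 (adjusted p = 0.093, 0.071 and 0.094), and Lda.35031 remained called, with a step difference of 13.80 ± 1.56 VST units in the deposited values (limma adjusted p = 3.7e-06).

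All 3 tweedle genes fell in ESM and were not called in ASM, and the difference between the steps was called for 1 of them. Lda.15281 had 0, 51.6 and 1.41 normalised counts on ESM day 8, against 2921, 3234 and 3176 on ESM day 5, and its steps differed by 10.58 ± 1.25 VST units (limma adjusted p = 6.8e-06). Lda.20030 had 301, 617 and 192 on ESM day 8, against 12966, 14530 and 8960 on ESM day 5 (fall of 5.43 VST units in ESM, limma adjusted p = 0.00067), and Lda.12768 had 229.7, 477 and 136 on ESM day 8, against 9552, 10588 and 6897 on ESM day 5. For these models the difference between the steps was not called (4.52 and 4.90 VST units, limma adjusted p = 0.24 and 0.14).

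Catalase and choline dehydrogenase rose in both strains but further in ASM. Lda.20862 had 3.04, 24.4 and 10.5 normalised counts on ESM day 8 and 2.25, 0 and 1.13 on ESM day 5 (step difference 9.85 ± 0.73 VST units, limma adjusted p = 3.4e-09). Lda.20867 had 15.2, 176 and 7.73 on ESM day 8 and 2.25, 0 and 2.26 on ESM day 5 (7.19 ± 1.21, limma adjusted p = 0.0012), and CHDH had 12.2, 36.1 and 5.62 on ESM day 8 and 4.5, 0 and 0 on ESM day 5 (6.23 ± 0.74, limma adjusted p = 8.4e-06). With voom the difference was called in none of these 3 (adjusted p = 0.12, 0.36 and 0.26), and with only the 12 libraries of the 2 days it was not called for Lda.20867 (limma adjusted p = 0.12). Within ESM day 8, pupa 2 was the highest for the catalase, CHDH, osiris and tweedle genes alike. XRCC3 rose more in ASM as well, by 1.88 ± 0.46 VST units (limma adjusted p = 0.042), a call lost without any 1 of 9 of the 12 pupae. This call was also lost with voom (adjusted p = 0.085) and with only the 12 libraries of the 2 days (limma adjusted p = 0.21).

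The 2 cuticle protein genes that rose in ASM rose in ESM as well. The cuticle protein gene Lda.23652 had 870, 3698 and 1294 normalised counts on ESM day 8 and no read on ESM day 5 (step difference 0.56 ± 0.72 VST units, limma adjusted p = 0.87). The C1B-like cuticle gene had 10909, 9967 and 13206 on ESM day 8, against 22.5, 135 and 158 on ESM day 5 (-0.76 ± 1.62, limma adjusted p = 0.94). TTPAL (Lda.4455) had 0, 27.3 and 0 on ESM day 8, against 45530, 28985 and 33884 on ESM day 5 (3.04 ± 1.65, limma adjusted p = 0.55). Collagen XV, HR38, E75, obstructor-E, peroxidase and IMPI changed in the same direction in both strains, with no called difference of the step. A p that misses the threshold does not show that the strains acted alike.

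Over the 5 sampling days, the 4 Osiris and 2 catalase models stayed at or below 17.6 normalised counts in every ASM pupa of days other than day 8, and the tweedle gene Lda.15281 was high on days 5 and 8. Mean normalised counts of osiris 20 in ASM were 0, 0.614, 2.64, 2392 and 0 over days 1, 3, 5, 8 and 11. Catalase Lda.20862 had no read in ASM on days 1, 3, 5 and 11. The tweedle gene Lda.15281 averaged 10.4, 21.7, 2051, 2416 and 0.214 in ASM on days 1, 3, 5, 8 and 11. Its plateau in ASM spanned days 5 and 8, and in ESM it was high on day 5 alone. TTPAL (Lda.4455) averaged 8.37, 251, 23167, 50.2 and 26.1 in ASM over the same days, a peak on day 5. Lda.14820 stayed high afterwards, with a mean of 71068 on ASM day 11. The days before 5 and after 8 are given as levels only.

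**Figure D5:**
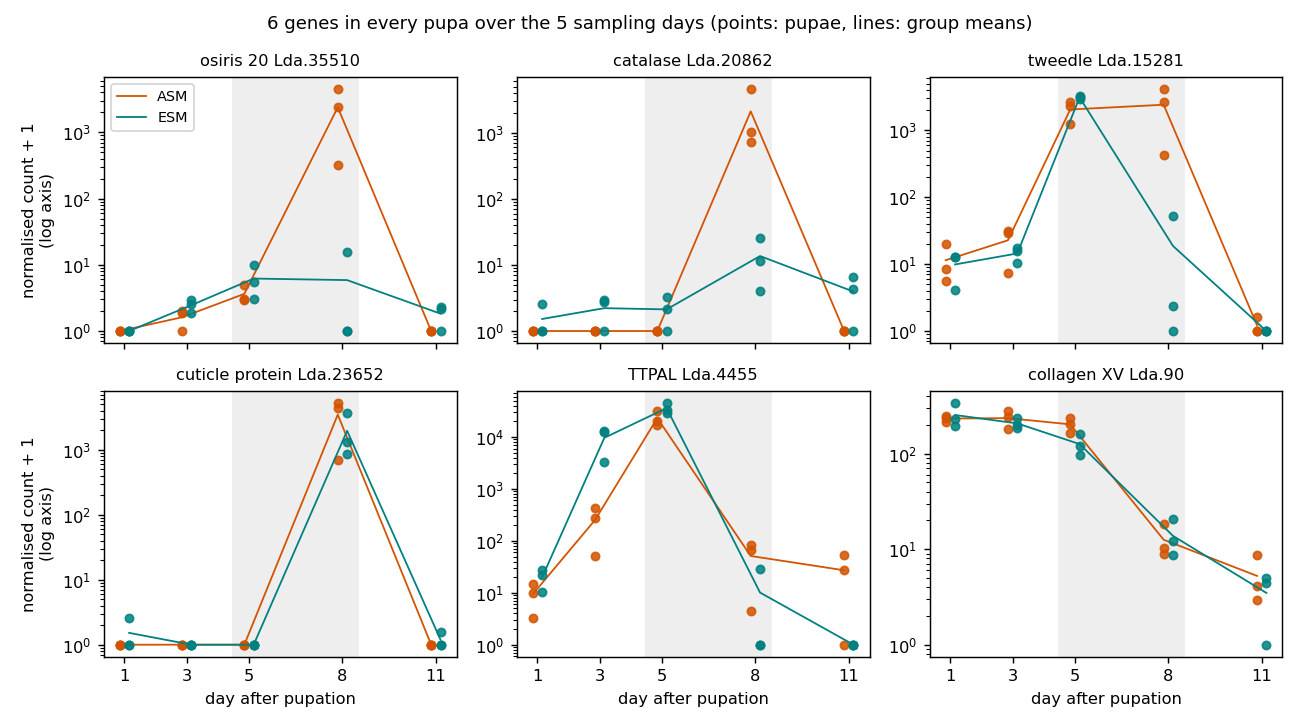
Normalised counts plus 1 (log axis) of 6 genes in every ASM (orange) and ESM (teal) pupa on days 1, 3, 5, 8 and 11 after pupation, with lines through the group means and days 5 to 8 shaded. Osiris 20 and catalase are at 324 normalised counts or more in each ASM day 8 pupa and at 24.4 or less in each ESM day 8 pupa, while the cuticle protein gene Lda.23652, TTPAL and collagen XV move in the same direction between days 5 and 8 in both strains.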

How the data were processed

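The authors sequenced poly(A) RNA of single whole pupae (directional libraries, Ion Proton), used FastQC 0.11.5 and Trimmomatic 0.36 for read quality, aligned to a draft ASM genome, removed iflavirus content, built gene models with StringTie and counted with featureCounts 2.0.0. The deposited values are log2-like, made by the authors with the variance-stabilising function in DESeq2 1.28.1 under R 4.0.2, with a lowest value of -0.52 for a count of 0. No other unit was used from the file.

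Since 1 transformation curve served all 30 libraries, it was inverted to recover reads, and 99.98 to 100% of values above 0 per library came out within 0.05 of a whole number. Recovered totals were 2638192 to 10788731 reads. Counting intervals are exact Poisson intervals at 95% and cover counting error only. The 19652 of 19654 genes with a read in 3 or more libraries were fitted with limma 3.58.1 (R 4.3.3), with a mean for each of 10 groups over 30 libraries, a variance trend, and Benjamini-Hochberg adjustment within each comparison. Alternatives were other library sets, voom on recovered counts, log2(normalised count + 1), equal library medians, low value filters, other variance priors, a block for the replicate number and leaving out each pupa. Scripts were tested on simulated data. Python 3.11.15 was used for tables and plots.

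The genes named were every cuticle, Osiris and qPCR reference gene; the 10 largest rises and falls among described genes that were called without overlap; 2 called genes with the largest change of each other list; the 5 most abundant described genes of each day; the 5 described genes with the smallest adjusted p for the strain difference; and the 2 largest rises and falls without a description. Members and lists were chosen with earlier results of these data known. Replicate numbers were read as names of pupae only.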

Additional observations from a re-analysis of the deposited data

Results flagged for a closer look

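The step between the days differed between ASM and ESM for 191 genes by the interaction test of limma, with adjusted p under 0.05. Among the genes named above, the ASM step exceeded the ESM step by 13.80 VST units for osiris 18 Lda.35031, 10.99 for osiris 20 Lda.35510, 10.64 for osiris 18 Lda.6827 and 9.99 for Osiris gene Lda.35030. For catalase the excess was 9.85 for Lda.20862 and 7.19 for Lda.20867. It was 10.58 for tweedle Lda.15281, 6.23 for choline dehydrogenase Lda.40578 and 1.88 for the DNA repair gene XRCC3 (Lda.34136). The Osiris, catalase and tweedle models among these were named by the study for higher day 8 levels in ASM than in ESM in these same pupae. Groups of 3 pupae were not tested for outlying pupae.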

How the results depend on the processing

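The count of ASM calls was within 1.5 times the reported 4767 under each alternative tried, and ranged over 3528 to 4780 when 1 pupa was left out, with 1813 to 2519 genes higher and 1647 to 2261 lower on day 8. With a block for the replicate number within strain 4592 genes were called. Deviations of same-numbered ASM pupae of the days correlated at 0.06, 0.059 and -0.028, and those of differently numbered pupae at -0.075 to 0.020. With 3 pupae a day, this cannot decide whether same-numbered pupae share a family or batch. The count for the strain difference moved more, to 104 (47 higher) with the 12 libraries alone, 52 (33 higher, 19 lower) with voom, 76 higher on the log2 scale, 47 lower with a mean count of at least 10, and 132 to 294 without 1 pupa (81 to 187 higher, 45 to 107 lower). The 294 came without ASM day 5 pupa 2, and the 45 lower without ESM day 8 pupa 1. The day difference in the share of reads (percentage points) changed sign without 1 pupa for the 1000 most abundant genes (-1.15 to 1.59), the adhesion list (-0.0271 to 0.131), the cilia list (-0.00280 to 0.000774) and the chemosensory list (-0.000185 to 0.000808). Of 51 named genes called in ASM, 42 kept the call under all 15 alternatives and 0 turned direction. Of 9 named strain differences 2 kept it under all 21, osiris 18 Lda.35031 and tweedle Lda.15281. With voom, adjusted p was 0.12 for catalase Lda.20862, 0.093 for osiris 20 and 0.071 for osiris 18 Lda.6827. The alternatives for ESM alone were chosen after seeing the data and each left its count within 1.5 times the reported one. The causes were not tested.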
